A study of Mus musculus with 4 samples.

Results

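Lef1, Tcf7, Ctnnb1, Axin2, Axin1, Apc and Gsk3b, 7 of the 16673 genes measured, carry the canonical Wnt signal inside the cell, from the β-catenin destruction complex to the TCF/LEF factors on DNA. They were chosen by gene symbol, with their normalized counts in these libraries and the differences between genotypes already known, so their values below are a description with no test. Total RNA was sequenced from Lin– cells, the bone marrow fraction left once cells with mature blood lineage markers are taken away, of 4 mice aged 2 months. The 2 control mice were Tet3F/F, that is with both Tet3 alleles floxed, and the 2 cKO mice were Tie2+/cre; Tet3F/F, with Cre under Tie2, a gene of endothelial and early blood cells. All 4 mice thus carried the floxed alleles, and the libraries labelled cKO alone carried Cre, which can act in any cell descending from a Tie2-expressing one, T cells and B cells included. The comparison asks how RNA levels differ when TET3, which oxidises 5-methylcytosine in DNA, is targeted in blood cells.

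Without a Wnt signal, AXIN1, the related AXIN2 and APC hold β-catenin (Ctnnb1) for the kinase GSK3β (Gsk3b), which marks it for degradation. When a Wnt ligand binds its Frizzled and LRP receptors the complex is held back, β-catenin accumulates and joins a TCF/LEF factor in the nucleus, and target genes are transcribed, among them Axin2, which feeds back on the pathway. In blood, TCF-1 (Tcf7) and LEF-1 (Lef1) are known for their roles in T cell development, in innate lymphoid cells and, for LEF-1, in early B cells.

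Because the enzyme targeted here acts on methylated cytosine, which in mammals lies mostly in CG dinucleotides, the bases just before a transcription start are shown for Lef1 and Axin2, the members with the largest difference between genotypes, and for the abundant Ctnnb1, whose groups overlapped. The sequences are from RefSeq, build GRCm38.p6, 250 bases ending 1 base before the start site, written 5′ to 3′ with every CG in capitals. They lie on the plus strand at chr3:131110047-131110296 for Lef1, chr11:108920099-108920348 for Axin2 and chr9:120933150-120933399 for Ctnnb1, and none of the 3 overlaps an exon of its own gene in GENCODE M21.
Lef1: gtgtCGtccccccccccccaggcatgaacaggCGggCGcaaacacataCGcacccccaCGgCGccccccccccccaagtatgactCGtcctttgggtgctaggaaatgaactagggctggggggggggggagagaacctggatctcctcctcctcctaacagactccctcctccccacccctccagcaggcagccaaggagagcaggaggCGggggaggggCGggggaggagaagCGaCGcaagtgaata
Axin2: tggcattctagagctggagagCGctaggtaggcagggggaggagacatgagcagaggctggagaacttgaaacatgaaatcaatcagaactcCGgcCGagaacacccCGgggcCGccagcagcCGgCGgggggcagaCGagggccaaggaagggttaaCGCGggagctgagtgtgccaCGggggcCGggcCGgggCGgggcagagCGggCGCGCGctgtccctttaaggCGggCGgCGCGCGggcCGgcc
Ctnnb1: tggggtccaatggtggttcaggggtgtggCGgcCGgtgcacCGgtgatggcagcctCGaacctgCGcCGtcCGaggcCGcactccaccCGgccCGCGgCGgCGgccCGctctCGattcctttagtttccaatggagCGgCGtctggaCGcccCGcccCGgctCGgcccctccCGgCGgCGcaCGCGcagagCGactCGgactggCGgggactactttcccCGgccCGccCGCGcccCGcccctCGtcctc
The Lef1 stretch holds 11 CG dinucleotides, the Axin2 stretch 24 and the Ctnnb1 stretch 35. Over all 32851 RefSeq windows of the same 250 bases 92.1% hold at least 1 CG, the median count is 6 and the quartiles are 2 and 16. As many as Lef1 or more were found in 35.6% of windows, as many as Axin2 in 12% and as many as Ctnnb1 in 2.97%. The stretches shown are those before the most upstream start of each gene. Other Lef1 starts had 14, 6 and 5 CG before them. Another Ctnnb1 start had 43, and 178 bases of that stretch lie in an exon of Ctnnb1. Methylation itself is not measured in these RNA data.

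RefSeq windows were matched for 5 of the 7 members, Lef1, Tcf7, Ctnnb1, Axin2 and Gsk3b, with 10 windows in all since some genes have several start sites. They were also searched, over 250 bases before and 50 after each start, for the TCF/LEF letters CTTTGAT and CTTTGAA on both strands (ATCAAAG and TTCAAAG on the other), 2 motifs that differ in their last base alone. None of the 10 windows held either, and of all 32851 windows 8.65% did. The absence says only that these letters are not in these windows.

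The reads counted to genes numbered 28845037 to 46673855 per library. Levels are given as normalized counts, gene reads divided by a size factor per library, with the mean ± SD of n = 2 mice, and 1 read is worth 0.798 to 1.17 normalized counts. Each library is 1 mouse, and with 2 mice per group the spread is poorly known. The targeted gene, Tet3, had 5056 and 6593 normalized counts in control replicates 1 and 2 and 6400 and 5084 in cKO replicates 1 and 2, so its groups overlapped. A count over the whole gene also takes in exons that Cre leaves, and the labels do not name the floxed exons, so Tet3 checks neither the deletion nor the labels. Reads of 4 Y chromosome genes (Ddx3y, Eif2s3y, Kdm5d and Uty) numbered 8543 and 12369 in the control libraries and 0 in both cKO libraries, and Xist had under 10 normalized counts in the former and at least 48950 in the latter. Genotype and the sex of the mice therefore cannot be told apart in any value here. Control replicate 2 stood apart, with 8.16% of its reads from 13 mitochondrial protein genes against 0.989% to 1.26% in the others and correlations over genes of 0.931 to 0.946 with them, where the other pairs reached 0.971. Genes are not independent points, so these correlations are descriptive.

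Lef1, Tcf7 and Axin2, a pair of nuclear factors and the classical target, were higher in both cKO libraries than in either control library, while β-catenin and the other 3 genes of the destruction complex had overlapping groups. The separation was widest for Lef1, whose mean was 3.69-fold that of controls, followed by Axin2 at 2.29-fold and Tcf7 at 1.61-fold. The means of Ctnnb1, Axin1, Apc and Gsk3b in cKO were 1.12, 1.04, 1.18 and 1.25 times those of controls. Thus 3 of 7 members had both cKO libraries above both controls, against 19.2% of the 16598 genes tested, and none had both below, against 19.5%. Since this contrast was known when the members were chosen, nothing is read from that count.

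**Figure D1:**
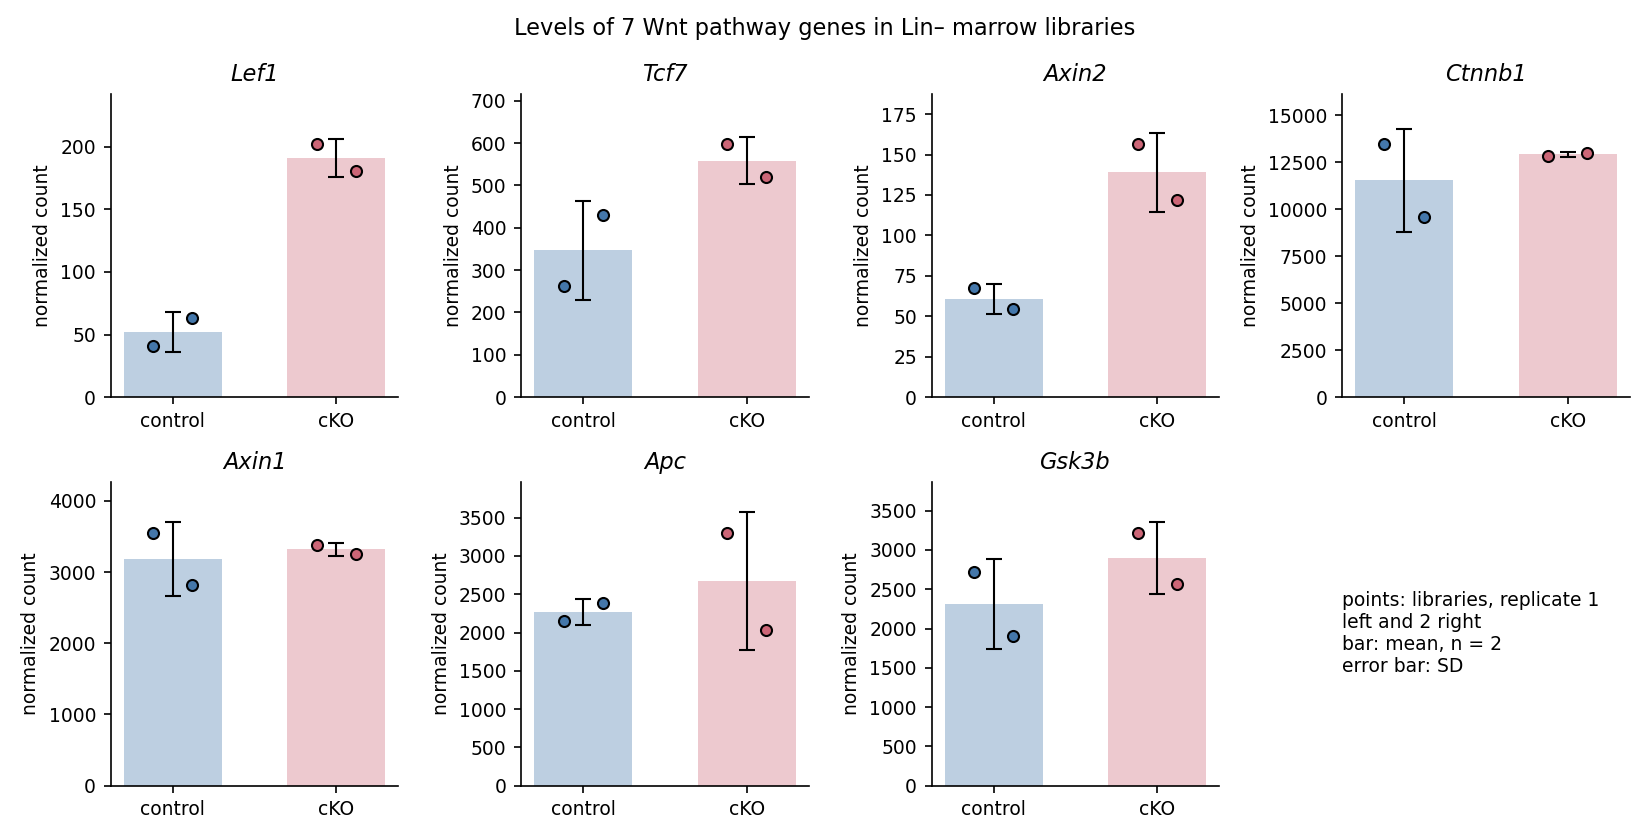
Normalized counts of the 7 genes in the 4 libraries (vertical axes, linear and starting at 0, one scale per gene). Points are libraries, with replicate 1 on the left and 2 on the right, bars are means of n = 2 mice and error bars are SD. The points of Lef1, Tcf7 and Axin2 do not overlap between control and cKO, and those of the other 4 genes do.

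Lef1, the TCF/LEF factor of immature T and B cells, had 40.6 and 63.0 normalized counts in control replicates 1 and 2 and 202 and 180.4 in cKO replicates 1 and 2. Both cKO libraries lay high and close together, and the lower of them was still 2.86-fold above the higher control. The means were 51.8 ± 15.8 in controls and 191 ± 15.3 in cKO, a log2 fold change of 1.89 (SE 0.44) (cKO minus control). Fold changes were taken after adding 1 to each normalized count, so those of low genes are understated. These levels rest on few reads, 44 and 79 in the controls and 173 and 157 in cKO. The exact Poisson 95% intervals of the reads, which cover counting error only, ran from 32 to 59.1 and 62.6 to 98.5 in controls and from 148 to 201 and 133 to 184 in cKO. Of the 16598 genes, 348 had a larger log2 fold change than Lef1. Leaving out each library in turn gave 1.58 to 2.21.

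Tcf7 encodes TCF-1, the factor that starts the T cell programme in thymic progenitors and is kept by innate lymphoid precursors. It had 263 and 430 normalized counts in the controls and 598 and 519 in cKO. The gap between groups was narrow, the lower cKO library being 1.21-fold above the higher control, while the controls themselves differed 1.63-fold. The log2 fold change was 0.73 (SE 0.32), from 347 ± 118 to 558 ± 55.5. It was 1.08 without control replicate 2, the library that stood apart, and 0.37 without control replicate 1.

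Axin2 encodes a scaffold of the destruction complex that β-catenin itself switches on, and it is widely used as a readout of the pathway. It had 67.4 and 54.2 normalized counts in the controls and 156 and 122 in cKO. The lower cKO library lay 1.81-fold above the higher control, a gap wider than the 1.24-fold and 1.28-fold differences within the groups. The means were 60.8 ± 9.31 and 139 ± 24.5, a log2 fold change of 1.18 (SE 0.44). Leaving out each library in turn gave 0.998 to 1.36. The values rest on 73 and 68 reads in controls and 134 and 106 in cKO, with Poisson 95% intervals of 57.2 to 91.8, 52.8 to 86.2, 112 to 159 and 86.8 to 128.

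Ctnnb1, the gene of β-catenin, had 13470.4 and 9613 normalized counts in the controls and 12832 and 13005 in cKO. Control replicate 2 alone was low, and the other 3 libraries lay within a narrow range. The log2 fold change of 0.18 (SE 0.22) was -0.06 without control replicate 2. Its level is set largely by degradation of the protein, which RNA does not show.

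Axin1, the constitutive scaffold of the complex, had 3554 and 2812 normalized counts in the controls and 3387 and 3254 in cKO. Both cKO libraries fell between the controls, with a log2 fold change of 0.07 (SE 0.20) that was -0.10 without control replicate 2. Apc, the scaffold that keeps β-catenin in the complex, had 2152 and 2390.4 in the controls and 3305 and 2035 in cKO. Here the cKO libraries were the highest and the lowest of all 4. Its log2 fold change was 0.19 (SE 0.26), -0.16 without cKO replicate 1 and 0.54 without cKO replicate 2.

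Gsk3b, the kinase, had 2717 and 1908 normalized counts in the controls and 3221 and 2570.0 in cKO. The lower cKO library lay below the higher control, and control replicate 2 was the lowest of the 4. The log2 fold change was 0.34 (SE 0.24), falling to 0.08 without control replicate 2 and to 0.17 without cKO replicate 1, and reaching 0.59 without control replicate 1. In the fit over all genes (limma, Benjamini-Hochberg adjusted p under 0.05) 0 of the 7 members were called, against 0.0723% of all genes. At an unadjusted p under 0.05 there were 2, against 6.1% of all genes. On the recovered reads edgeR called 0 of the 7 and DESeq2 called 1, Lef1, and nothing is read from these counts either.

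Per kilobase of exon, with lengths from GENCODE M21, the 7 genes spanned a wide range of levels. On the scale of normalized counts per kilobase the control means rose from Lef1 (5.90) and Axin2 (11.1) through Tcf7 (132), Apc (141) and Gsk3b (235) to Axin1 (832) and Ctnnb1 (2223). Tcf7 and Apc were not apart in controls, with libraries at 100.2 and 164 and at 134 and 148. In cKO the order began with Lef1 (21.8) and Axin2 (25.3), which now overlapped, at 20.5 and 23.0 against 22.1 and 28.4. Apc (166), Tcf7 (213), Gsk3b (295), Axin1 (867) and Ctnnb1 (2488) followed. The members that were higher in cKO were thus, with Tcf7 near Apc, the least abundant of the 7 per length. Members sit on several chromosomes in the same annotation, Lef1 on 3, Tcf7 and Axin2 on 11, Ctnnb1 on 9, Gsk3b on 16, Axin1 on 17 and Apc on 18.

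Ratios between members within a library do not depend on its size factor. Axin2 made 1.90 and 1.93 normalized counts per 100 of Axin1 in the controls and 4.62 and 3.74 in cKO. The controls were nearly equal, and both cKO libraries lay above them, 2.19-fold on average. Lef1 per 100 of Tcf7 was 15.4 and 14.7 in the controls and 33.8 and 34.7 in cKO, so these replicates also lay close while the groups stood apart. The ratios of the destruction complex genes to Ctnnb1, their substrate, overlapped between groups. Axin1 per 100 of Ctnnb1 was 26.4 and 29.3 in controls and 26.4 and 25 in cKO, Apc was 16 and 24.9 against 25.8 and 15.6, and Gsk3b was 20.2 and 19.8 against 25.1 and 19.8. These ratios were set up after the levels were seen and carry no test.

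The paralogs show how the TCF/LEF family was made up. Tcf7l1, which mostly acts as a repressor, had 60.0 and 36.7 normalized counts in controls and 56.0 and 67.8 in cKO, and Tcf7l2, the family member best known from gut epithelium, had 184 and 270.4 against 204 and 247. Both pairs of groups overlapped, and neither gene passed the test (log2 fold change 0.39, SE 0.55, and 0.01, SE 0.35; adjusted p = 0.876 and 0.994 by limma with Benjamini-Hochberg adjustment). Of the reads of these 4 genes, Lef1 took 7.42% (exact 95% interval 5.44 to 9.83) and 7.88% (6.29 to 9.72) in controls and 19.1% (16.5 to 21.8) and 17.8% (15.3 to 20.5) in cKO. The share of Tcf7l2 was 33.6% (29.8 to 37.5) and 33.8% (30.9 to 36.8) in controls and 19.3% (16.8 to 22) and 24.3% (21.6 to 27.3) in cKO. Tcf7 held the largest share in each library, from 48.1% (44.0 to 52.2) to 56.4% (53.1 to 59.6), with overlapping groups. These are shares of reads, not corrected for length, and their intervals cover counting error only. Shares within a library are tied, a larger share of any gene lowering those of the others, so the Tcf7l2 share is not a separate difference from that of Lef1. Gsk3a, the second GSK3 kinase, had 4116 and 3935 normalized counts in controls and 3683 and 3769 in cKO (log2 fold change -0.11, SE 0.18, adjusted p = 0.887 by limma with Benjamini-Hochberg adjustment). Both cKO libraries thus lay below both controls, as for 19.5% of all genes. Gsk3b per 100 of Gsk3a was 66 and 48.5 in controls and higher, 87.4 and 68.2, in cKO. Apc2 was low throughout, at 27.7 and 65.4 against 42.0 and 32.2 (log2 fold change -0.21, SE 0.66; adjusted p = 0.946).

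**Figure D2:**
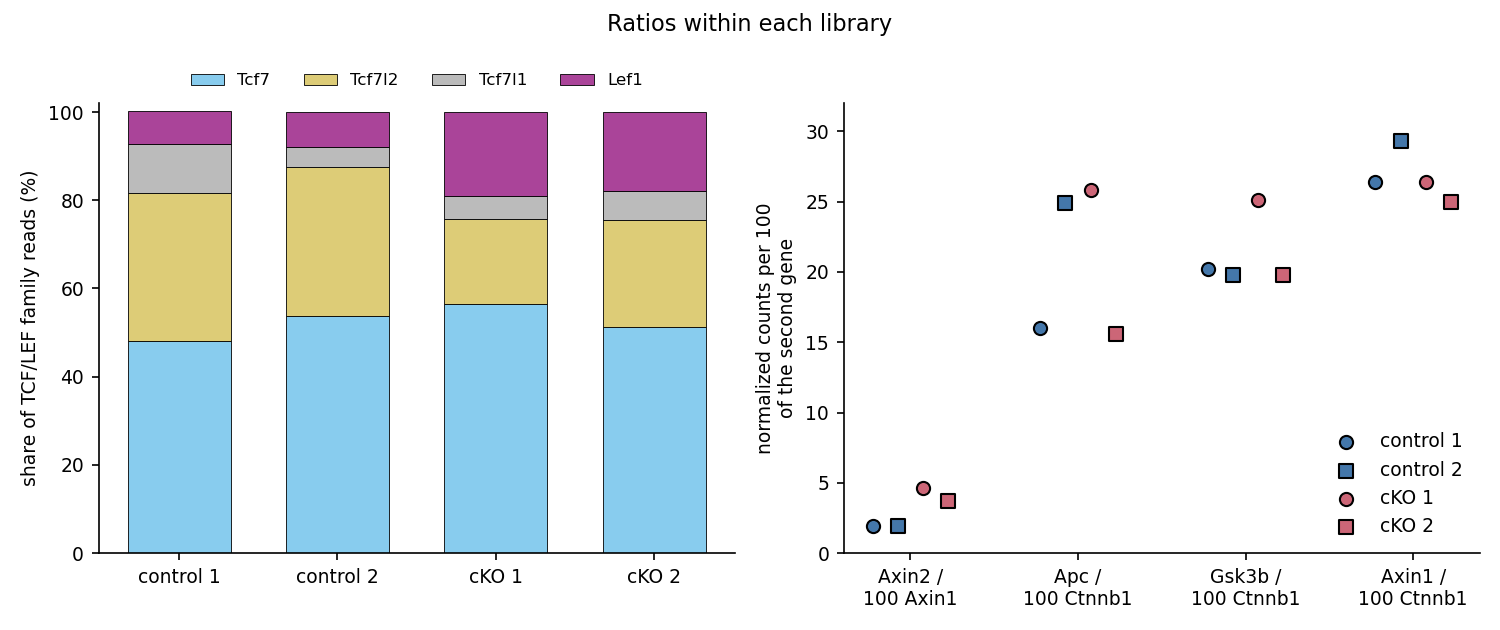
Left, percent of the reads of Tcf7, Tcf7l2, Tcf7l1 and Lef1 that each gene took, stacked per library. Right, normalized counts of one gene per 100 of another in each library (circles, replicate 1; squares, replicate 2; blue, control; red, cKO). Lef1 takes 7.42% and 7.88% in controls and 19.1% and 17.8% in cKO, and Axin2 per 100 of Axin1 separates the groups while the other 3 ratios overlap.

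The wider pathway was taken from a list of 115 other genes grouped by role, of which 81 were in the table and 80 could be tested. None of the 80 passed (limma with Benjamini-Hochberg adjustment, 0 higher and 0 lower), 5 had an unadjusted p under 0.05 (6.1% of all genes did), and edgeR and DESeq2 on the recovered reads called 0 as well. Their median log2 fold change was 0.09, against 0.01 over all genes tested and 0.34 over the 7 members. Both cKO libraries lay above both controls for 19 of the 80 (23.8%, against 19.2% of all genes). They lay below both for 10 of the 80, against 19.5% of all genes.

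Few ligand genes had values, 6 of 21 listed genes for ligands and their release being in the table, where the smallest sum was 41 reads. None of the 6 passed, 2 had both cKO libraries above both controls and 0 had both below (19.2% and 19.5% of all genes). Wnt10b, a ligand made by haematopoietic cells, had 31.4 and 33.5 normalized counts in controls and 81.7 and 41.4 in cKO. Wls, the carrier that brings Wnt proteins to the cell surface, overlapped at 4507 and 2139.9 against 3482 and 4052. Porcn, the enzyme that acylates Wnt proteins, lies on the X chromosome and had 1.85 and 7.98 against 22.2 and 55.1, too few reads in controls for a fold.

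Of 18 receptor and relay genes tested 0 passed, with a median log2 fold change of 0.22 and both cKO libraries above both controls for 7 and below for 2 (19.2% and 19.5% of all genes). Lrp6, the coreceptor that captures the Axin scaffold once Wnt is bound, had 2382 and 1982 normalized counts in controls and 3472 and 2824 in cKO (log2 fold change 0.53, SE 0.21; adjusted p = 0.756 by limma with Benjamini-Hochberg adjustment). Fzd9, a Frizzled receptor, went the other way at 53.5 and 39.9 against 14.0 and 23.0, as did Rspo1, a secreted enhancer of Wnt signalling, at 116 and 87.7 against 49.0 and 68.9. Neither passed the test (adjusted p = 0.756 for both).

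Of 19 further genes of the destruction complex 0 passed, and their median log2 fold change was 0.01. Both cKO libraries lay above both controls for 4 and below for 5 (19.2% and 19.5% of all genes). Csnk1g1, a casein kinase, had 1110 and 1157 normalized counts against 1728 and 1369, and Tnks, the tankyrase that marks Axin for degradation, had 2938 and 2496 against 4387 and 2850.3. Ppp2r5a, a regulatory subunit of the phosphatase PP2A, had 8730 and 9006 against 6624 and 7748. The first and the third of these had groups that did not overlap, in opposite directions.

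Among 19 nuclear partners 0 passed, with a median of 0.03. Groups were apart for 2 higher and 1 lower in cKO (19.2% and 19.5% of all genes). Bcl9l and Bcl9 link β-catenin to the Pygopus proteins. Bcl9l had 880 and 721 normalized counts in controls and 1707 and 1082 in cKO (log2 fold change 0.77, SE 0.27; adjusted p = 0.756 by limma with Benjamini-Hochberg adjustment), and Bcl9 had 1308 and 846 against 1502 and 1290.2. Ep300, a histone acetyltransferase and coactivator, had 4475 and 3552 against 6976 and 4355. The groups of Bcl9l did not overlap, and those of the other two did.

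The inhibitors were sparse, with 5 of 15 in the table and 0 passing. Both cKO libraries lay below both controls for 1 and above for 0 (19.5% and 19.2% of all genes). Wif1, which binds Wnt ligands outside the cell, had 27.7 and 33.5 normalized counts in controls and 9.34 and 2.30 in cKO. Sfrp4, a secreted Frizzled-like decoy, overlapped at 90.5 and 291 against 65.4 and 115, and Dkk3, a Dickkopf family gene, had 14.8 and 0 against 11.7 and 25.3. In the same libraries Col1a1, a collagen gene of bone cells, had 10275 and 8090.0 in controls and 1258 and 3299 in cKO, and Col1a2, its partner chain, had 7068 and 6709 against 1042 and 2854. Both cKO libraries lay below both controls for 5 of 9 stromal and bone markers (19.5% of all genes) and above for 2 (19.2%). The latter were Runx2, the bone lineage factor, at 4892 and 4174 against 7775 and 5471, and Lepr, named after its values were seen, at 108 and 174 against 189 and 279. The summed levels were 24246 to 26096 in controls and 12525 to 14735 in cKO, with no marker at 0. By limma with Benjamini-Hochberg adjustment 0 of the 9 passed (6 at an unadjusted p under 0.05), while DESeq2 called Col1a1 and Col1a2. The part of these cells in the Wif1 values was not tested.

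Apart from Axin2, the feedback and target genes showed no common direction, 0 of 13 passing, 4 above 0 and 9 below, with a median of -0.06. Their groups did not overlap for 4 higher and 1 lower in cKO (19.2% and 19.5% of all genes). Id2, a helix-loop-helix inhibitor also needed by innate lymphoid cells, had 1073 and 1200.4 normalized counts in controls and 1868 and 1805 in cKO (log2 fold change 0.69, SE 0.20; adjusted p = 0.756 by limma with Benjamini-Hochberg adjustment). The cyclin genes differed in direction. Ccnd2 had 7910 and 6679 against 9394 and 8045, and Ccnd1 had 917 and 749 against 574 and 733.

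**Figure D3:**
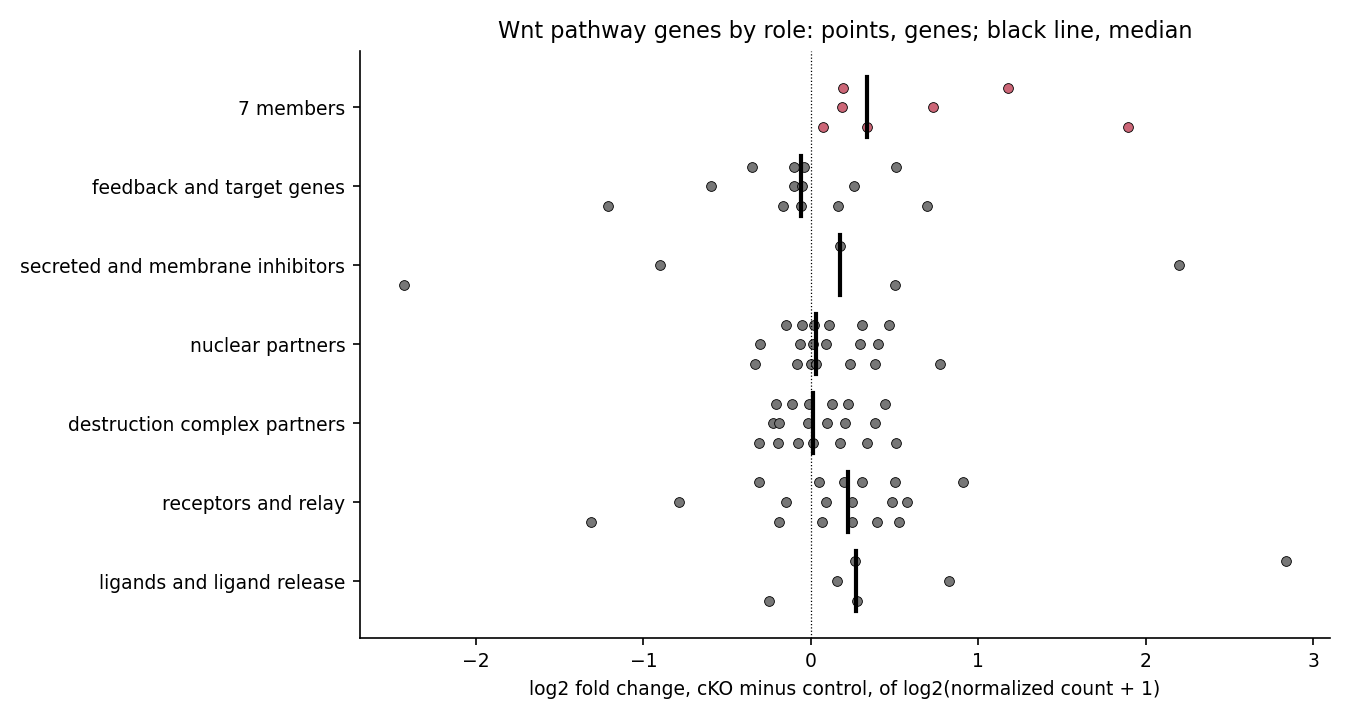
Log2 fold change, cKO minus control, of log2(normalized count + 1) for 80 tested Wnt pathway genes by role and for the 7 members (horizontal axis). Points are genes and black lines are medians. The role medians lie from -0.06 to 0.27 and that of the members at 0.34, with Lef1 at 1.89 and Axin2 at 1.18.

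Since Lef1 and Tcf7 mark lymphoid cells, marker genes of those cells are given beside them. In bulk RNA, more or fewer cells of a type and more or less RNA per cell cannot be told apart. For 11 of the 14 T cell markers measured, both cKO libraries lay above both controls (19.2% of all genes did so), and none was at 0 in any library. By limma with Benjamini-Hochberg adjustment 0 passed, with 10 at an unadjusted p under 0.05 (6.1% of all genes), and DESeq2 called Trbc2 among those named here. Their summed level was 1508 and 3080 normalized counts in controls and 5692 and 4182 in cKO. Trbc2 and Trbc1, the constant parts of the T cell receptor β chain, had 134 and 278 against 721 and 556 and 120.0 and 339 against 669 and 470. Lat, an adaptor that platelet precursors and mast cells also make, overlapped at 546 and 1050.4 against 879 and 803.

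For NK and innate lymphoid markers the count was 9 of 13, against 19.2% of all genes, with sums of 7440 to 10499 normalized counts in controls and 11477 to 12212 in cKO, and none at 0 in any library. Il2rb, a cytokine receptor chain, had 698 and 1099 normalized counts against 3125 and 2271, and Klrk1, an activating receptor, had 331 and 368 against 884 and 581, while Nkg7, also a granule gene of myeloid cells, was the most abundant and overlapped (8474 and 4671 against 4975 and 6616). DESeq2 called Il2rb. By limma with Benjamini-Hochberg adjustment 0 genes of the NK, early B cell, progenitor and endothelial lists passed. At an unadjusted p under 0.05 there were 8, 1, 2 and 1, against 6.1% of all genes. For early B cell markers both cKO libraries lay above both controls in 7 of 13, against 19.2% of all genes. Their sums were 4795 and 5527 in control replicates 1 and 2 and 9891 and 5795 in cKO replicates 1 and 2. The difference in sums thus lay mostly in cKO replicate 1, with cKO replicate 2 close to the controls. Igll1, at 0 in control replicate 2, was the only marker at 0 in a library. Dntt, the terminal transferase of lymphoid progenitors, had 2903 and 3642 against 5824 and 3650, and Il7r, the interleukin 7 receptor, had 480 and 495 against 1390.3 and 538. Cd79b, a B cell receptor signalling chain, overlapped at 925 and 727 against 710 and 885, as did 6 of the 13 in all. Among stem and multipotent progenitor markers 4 of 10 had both cKO libraries above both controls, against 19.2% of all genes. Their sums were 32668 to 32736 and 39531 to 41198, with none at 0. Kit, the receptor of that compartment, had 10915 and 11537 against 14050 and 12478. For endothelial markers this count was 3 of 7, against the same 19.2%, with sums of 8363 to 8751 and 9576 to 10497. It was 0 of 9 for erythroid and 0 of 9 for granulocyte markers. Both cKO libraries lay below both controls for 0 and 1 of these (19.5% of all genes). Control replicate 2 stood apart in these lists too. Its erythroid sum was 116280 normalized counts against 31460 to 50105 in the other libraries, and its granulocyte sum was 185850 against 372240 to 591490. Leaving out control replicate 2 took the log2 fold change of Lef1 from 1.89 to 2.21 and that of Axin2 from 1.18 to 1.02. Without control replicate 1 they were 1.58 and 1.33. With n = 2 per group, leaving out either control moves a log2 fold change equally, in opposite directions, so these values do not single out control replicate 2. The part in the member values of what sets control replicate 2 apart was not tested. The labels do not list the antibodies behind the Lin– gate.

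Lef1 was also set against the T cell genes within each library. Per 100 normalized counts of Cd3d, Cd3e, Cd3g, Trbc1 and Trbc2 together, Lef1 made 9.34 and 5.73 in the controls and 7.31 and 8.99 in cKO, so the groups overlapped. Tcf7 per 100 of the same sum was 60.5 and 39.1 in controls and lower, 21.6 and 25.9, in cKO, and Axin2 was 15.5 and 4.93 against 5.66 and 6.07. Against the whole T cell list the picture for Lef1 differed, with 26.9 and 20.5 per 1000 in controls and 35.5 and 43.1 in cKO; Lat alone is 546 and 1050.4 of that sum in controls. Per 1000 of the early B cell sum Lef1 was 8.47 and 11.4 against 20.4 and 31.1, and per 1000 of the NK and innate lymphoid sum 3.87 and 8.47 against 16.5 and 15.7. Axin2 was likewise higher in both cKO libraries per 1000 of these sums, at 14.1 and 9.81 against 15.8 and 21 for early B cells and 6.42 and 7.29 against 12.8 and 10.6 for NK and innate lymphoid cells, while it overlapped per 1000 of the T cell list (44.7 and 17.6 against 27.5 and 29.1). Tcf7 overlapped per 1000 of the early B cell sum (54.9 and 77.8 against 60.4 and 89.6) and of the NK and innate lymphoid sum (25.1 and 57.8 against 48.9 and 45.2), and per 1000 of the T cell list it was lower in both cKO libraries (175 and 140 against 105 and 124). Nkg7, also a granule gene of myeloid cells, alone is 8474 and 4671 of the NK and innate lymphoid sums of 10499 and 7440 in controls. In cKO it is 4975 and 6616 of 12212 and 11477. Ratios to this sum thus depend largely on Nkg7, and ratios without it were not taken. The 5 receptor genes were picked after values were seen, and the part of T cells in the Lef1, Tcf7 and Axin2 values was not tested.

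**Figure D4:**
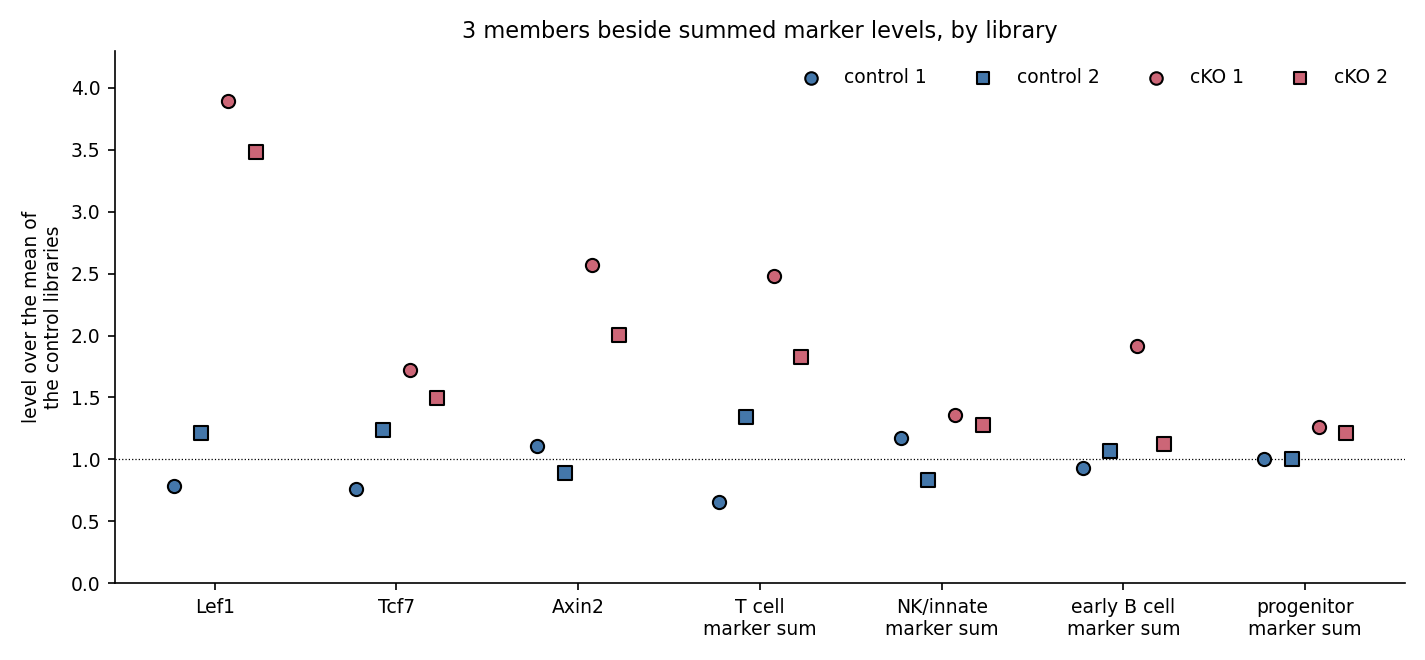
Level in each library over the mean of the control libraries (vertical axis, linear from 0) for Lef1, Tcf7, Axin2 and the summed normalized counts of 4 marker lists. Circles are replicate 1, squares replicate 2, blue control and red cKO. The 4 marker sums and the 3 members are all higher in both cKO libraries than in either control. The T cell sum is 1508 and 3080 in controls and 5692 and 4182 in cKO. The mean progenitor sum in cKO is 1.23-fold that of controls. The dotted line is the control mean.

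Genes with the most similar pattern were found by the root mean square difference of centred log2 values over the 4 libraries, among 11666 genes with a mean of at least 50. For Lef1 they were Cxcr6 (0.08), a chemokine receptor, Skap1 (0.11), a T cell adaptor, Asb2 (0.17) and Upk1b (0.18). Cxcr6 had 251 and 340 normalized counts in controls and 1218 and 1010 in cKO. For Tcf7 they were Kcnk5 (0.03), a potassium channel, Gprc5b (0.04), Cish (0.04), a cytokine signalling inhibitor, and Ypel1 (0.08). For Axin2 they were Cd5 (0.05), a T cell and B cell surface receptor, Plekha7 (0.07), Alpk3 (0.09) and Inppl1 (0.09), a lipid phosphatase, and Cd5 had 78.5 and 60.6 against 176 and 129. The members were less alike among themselves, at 0.58 between Lef1 and Tcf7, 0.49 between Lef1 and Axin2 and 0.43 between Tcf7 and Axin2. With 4 libraries in 2 groups such matches are a description.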

How the data were processed

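RNA from Lin– marrow cells of 4 mice, 2 control and 2 cKO, was analysed. Per the file headers, the authors deposited a normalized signal per gene, that is its read count divided by a library size factor. It covers 16673 genes, and not every gene listed here is among them. The submitters' processing notes name build mm39, STAR 2.7.9a, Trim Galore 0.6.7, featureCounts, DESeq2 and SAMtools. Annotation and strand: not given in the sources used here. Columns headed WT were taken as control by group and number. In every library 100% of values were whole multiples of 1 read, within 0.1 read, so reads were recovered. The smallest sum over the 4 libraries was 41 reads.

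All genes with a mean of at least 10 (16598 of 16673) were fitted with limma 3.58.1 (R 4.3.3) on log2(value + 1), with empirical Bayes and a trend, two-sided, Benjamini-Hochberg adjusted, threshold 0.05. The residual degrees of freedom were 2. An exact permutation of 2 against 2 cannot reach that threshold. edgeR 4.0.16 (12 calls) and DESeq2 1.42.0 (112 calls) were run on the recovered reads. The steps were also run on simulated reads with the same dispersion for every gene and no outlying library. That run does not cover a library like control replicate 2.

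The members, gene lists and tests were chosen with earlier results of these data known. Genes named besides the members are their paralogs, the 3 smallest p-values of each pathway role, the 3 highest levels of each marker list and, for likeness, the 4 nearest genes. Within-library ratios and sums of receptor genes were added after the values were seen, and Igll1 was named for its 0. Libraries of a group were distinct (chi-square over its degrees of freedom was 288 in the control pair and 36.4 in the cKO pair). Coordinates and sequences are RefSeq on GRCm38.p6, another build than that of the reads, and exon lengths come from GENCODE M21 by symbol.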

Additional observations from a re-analysis of the deposited data

How the results depend on the processing

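Over all genes 5 were higher and 7 lower in cKO. The higher count was 2 with a mean of at least 50, 2 without a variance trend and 3 with the replicate block, and DESeq2 on the recovered reads gave 74 higher and 38 lower. Leaving out one library at a time, the higher count ran from 4 to 232 and the lower from 5 to 161. The largest counts came without control replicate 1, where control replicate 2 was the only control and its spread is assumed to be that of cKO. Without cKO replicate 1 and without cKO replicate 2 the lower counts were 22 and 12. The cause was not tested. The replicate numbers share a label and no more, the correlation of same-numbered deviations from the group means being -0.07, and the block called 0 pathway list genes.

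Under all 13 alternatives the pathway list kept 0 calls in each direction. Its median ran from 0.04 to 0.19. The log2 fold changes of Lef1, Tcf7, Axin2 and Gsk3b were above 0 under all 13. Those of Ctnnb1, Axin1 and Apc fell below 0 under 1 each, as given above. Other settings than left-out libraries gave 1.72 to 1.91 for Lef1, 0.69 to 0.74 for Tcf7 and 1.07 to 1.21 for Axin2. Lef1 and Axin2 rest on 44 to 173 reads per library, which limits their precision.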
